A study of Mus musculus with 8 samples.

Results

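Injury-responsive microglia are microglia that turn on a shared set of phagocytic, lipid-handling and growth factor genes beside damaged or degenerating brain tissue. They were picked out here by the summed level of Lpl, Cst7, Itgax, Gpnmb and Igf1. Microglia were defined as droplets in which at least 3 of the 5 microglial genes P2ry12, Tmem119, Sall1, Gpr34 and Siglech were detected, with collagen and endothelial transcripts near absent. The 25% of all microglia with the highest 5-gene sum was kept, pooled over libraries, and cells in which 3 or more of Mki67, Top2a, Cenpf, Cdk1 and Ccnb2 were detected were removed as dividing. This left 4443 injury-responsive microglia, among 19821 microglia and 46216 droplets with at least 2000 transcript molecules (unique molecular identifiers, UMIs) and under 20% mitochondrial UMIs. They are set against the 14630 remaining microglia, which lay below the cut and were not dividing.

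The cells came from adult female mice, labelled Bl/J6, that all received a photothrombotic stroke (PT) of the right sensorimotor cortex, in which light activates an injected dye and closes the vessels below. A subcutaneous pump gave 2.4 U per day of ancrod, a snake venom enzyme that depletes fibrinogen from blood, or saline, from 2 days before the injury on. The injury site and its spared rim were taken 6 days after PT from 4 saline mice and 4 ancrod mice, each mouse 1 library, with no uninjured mouse among them, and cells were neither sorted nor enriched. The meninges had been removed by dissection, and myelin and red blood cells were depleted. Mouse 4 of each group was injured and sequenced apart from mice 1 to 3, as batch 2. Each library held 97861434 to 142139441 UMIs, of which 5080 to 6277 droplets a library were kept. The saline mice gave 388, 519, 877 and 538 injury-responsive microglia and the ancrod mice 574, 500, 539 and 508.

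Microglia are the resident macrophages of the brain. In undamaged tissue they carry sensors for purines and for neuronal ligands, such as P2ry12 and Cx3cr1, and hold their identity through transcription factors such as Sall1. Near plaques, demyelination or infarcts, microglia that take up debris lower these genes and raise lipid and lysosome genes, through signals that include the lipid receptor Trem2 and its adaptor Tyrobp. Of the genes used for the selection, Lpl encodes lipoprotein lipase, which frees fatty acids from lipoproteins, Cst7 encodes cystatin F, an inhibitor of lysosomal cathepsins, Itgax encodes CD11c, the alpha subunit of complement receptor 4, Gpnmb encodes a lysosomal and surface glycoprotein of lipid-laden phagocytes, and Igf1 encodes a growth factor for neurons and oligodendrocytes.

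Cst7, Itgax, Gpnmb and Igf1 each had 1 promoter window in RefSeq (mouse build GRCm38.p6, 250 bases before to 50 bases after the annotated start, both strands searched), and each of these windows held 1 match to TGANTCA, the core letters bound by AP-1 and related basic leucine zipper factors. These sequences are shown because the genes that define the cells share the letters, a pattern seen after the results were known. The stretches run from 100 bases before the start to the first 20 bases of the transcript, 5′ to 3′ on the strand of the gene, with the match to TGANTCA, or to CACGTG for Ctsd, in capitals.
Cst7 chr2:150570315-150570434, + strand: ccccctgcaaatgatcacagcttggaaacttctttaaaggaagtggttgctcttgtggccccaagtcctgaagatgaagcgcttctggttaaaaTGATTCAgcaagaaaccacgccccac
Itgax chr7:128129450-128129569, + strand: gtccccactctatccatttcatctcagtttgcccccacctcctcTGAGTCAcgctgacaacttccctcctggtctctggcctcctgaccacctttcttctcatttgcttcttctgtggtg
Gpnmb chr6:49036418-49036537, + strand: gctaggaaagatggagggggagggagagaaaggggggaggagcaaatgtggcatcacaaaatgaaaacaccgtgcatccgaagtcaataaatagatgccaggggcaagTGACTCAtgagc
Igf1 chr10:87861011-87861130, + strand: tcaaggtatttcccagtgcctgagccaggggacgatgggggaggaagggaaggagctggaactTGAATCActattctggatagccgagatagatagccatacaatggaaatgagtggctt
Ctsd chr7:142387808-142387927, - strand: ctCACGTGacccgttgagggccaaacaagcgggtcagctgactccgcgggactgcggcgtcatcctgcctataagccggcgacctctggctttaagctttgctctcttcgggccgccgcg

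The first base of the match lay 6 bases before the annotated start in Cst7, 56 before it in Itgax, 37 before it in Igf1 and 8 bases after it in Gpnmb. No Lpl window was at hand. TGANTCA was held by 7.81% of all 32851 windows and, counting a gene when any of its windows held it, by 8.97% of all 27025 genes with a window. It was held by 6.25% of the genes considered in the comparison with the remaining microglia, by 27 of 440 (6.14%) counted as lower there and by 32 of 264 (12.1%) counted as higher when the selection genes, in which the letters were noticed, are left out. CACGTG, the letters of the E-box bound by TFEB and other factors of lysosome genes, was held by 8.09% of all genes with a window, by 12.9% of the genes considered, by 10.6% of those counted higher without the selection genes and by 11.6% of those counted lower, and the cathepsin gene Ctsd had 2 matches. GAGGAAGT, a site of the myeloid factor PU.1, was held by 3.69% of all genes with a window, 4.36% of the genes considered, 4.17% of the genes counted higher without the selection genes and 6.36% of those counted lower. These are counts of letters and were not tested.

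The values that chose the cells are given as a description. The cut lay at a 5-gene sum of 4.74 UMIs per 10000, the highest sum outside it was 4.74, and the median sum was 10.2 inside and 0.776 among the remaining microglia, of which 39.3% had a sum of 0. The border was crowded, with 362 cells within 10% above the cut and 440 within 10% below it. Summed over the cells of a mouse and given as counts per 1000000 UMIs (CPM), Gpnmb stood at 683, 593, 558 and 791 CPM in injury-responsive microglia of the saline mice and 570, 748, 714 and 670 CPM in those of the ancrod mice, against 5.37 to 9.87 CPM in the remaining microglia. Igf1 stood at 580, 619, 694 and 452 CPM and 422, 491, 686 and 537 CPM, against 11.6 to 21.1 CPM. Lpl stood at 396, 325, 336 and 268 CPM and 226, 220, 326 and 481 CPM, against 21.9 to 45.7 CPM. Cst7 stood at 281, 247, 285 and 314 CPM and 268, 259, 277 and 250 CPM, against 56.9 to 91.9 CPM. Itgax stayed low in both sets, at 16.6 ± 4.74 CPM (SD, n = 8 mice) against 11.6 ± 2.21 CPM, and gave 1.19% of the summed score. Gpnmb gave 29.8% of it, Igf1 29.4%, Cst7 20.7% and Lpl 18.9%. Not every cell held each gene. Cst7 was detected in 84.1% of injury-responsive microglia, Lpl and Igf1 in 71.0% each, Gpnmb in 43.2% and Itgax in 21.8%. In 10.2% of the cells only 1 of the 5 genes was detected, and in 24.5% only 2.

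**Figure D1:**
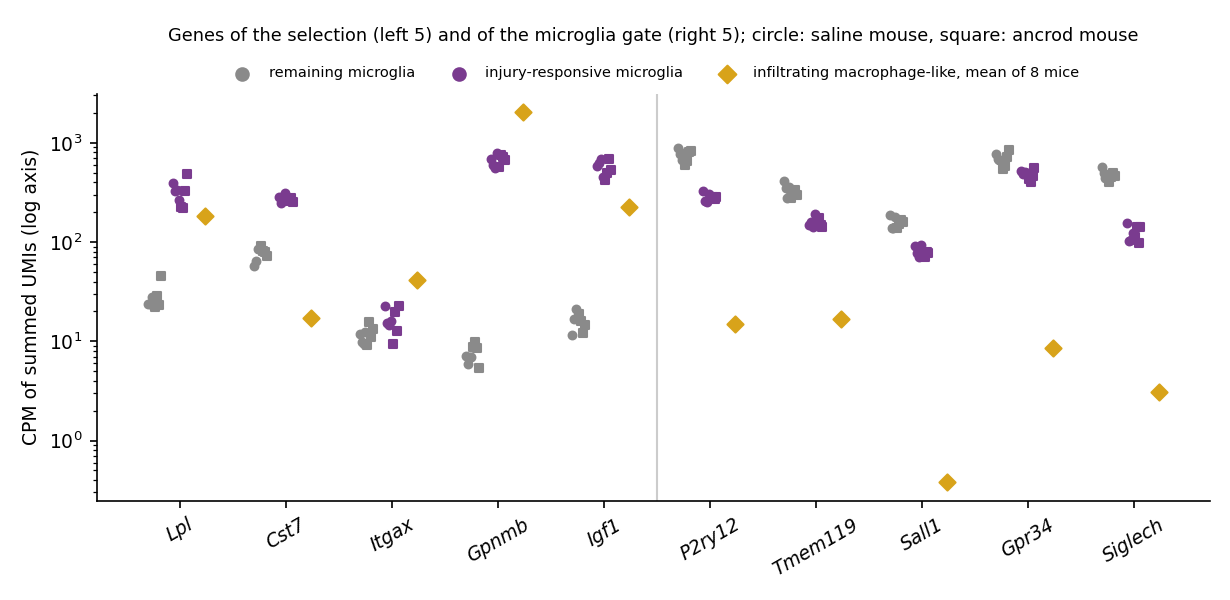
Levels (CPM of summed UMIs, log axis) of the 5 genes of the selection and the 5 genes of the microglia gate, with 1 point per mouse for injury-responsive and remaining microglia and the mean of 8 mice for infiltrating macrophage-like cells. Gpnmb was at 666 CPM in injury-responsive and 7.44 CPM in remaining microglia, and the gate genes lay below their level in the remaining microglia. Macrophage-like cells were chosen for near absence of the gate genes, so their low position there is set by the choice.

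The gate itself required at least 3 of the 5 microglial genes, so their levels are no check of the label and are given as a description. For comparison, 2140 infiltrating macrophage-like cells were picked by near absence of the gate genes and by monocyte and macrophage genes. At least 3 of Ccr2, Ms4a7, Plac8, F13a1, Arg1, Fn1 and Chil3 had to be detected in them. Their levels of these genes are thus in part set by the choice. Of microglial genes outside the gate, the fractalkine receptor Cx3cr1 stood at 1103 ± 88.5 CPM in injury-responsive microglia and 181 ± 34.9 CPM in macrophage-like cells, and the crystallin Crybb1 at 95.0 ± 18.4 and 2.14 ± 1.08 CPM. P2ry12 stood at 283 ± 23.7 CPM in injury-responsive microglia, 750 ± 97.3 CPM in remaining microglia and 14.9 CPM in macrophage-like cells. Sall1, a transcription factor of microglial identity, stood at 79.3 ± 8.45, 157 ± 18.9 and 0.382 CPM. Cells were also sorted by which of the 5 selection genes was highest in them, and 848 cells (19.1%) were led by Gpnmb. In 561 of these 848 (66.2%) exactly 3 gate genes were detected, the least the gate allows, against 28.5% of all injury-responsive and 8.91% of the remaining microglia, although Gpnmb-led cells were deep, with a median of 30146 UMIs. These 561 cells, 12.6% of all cells selected, each lack 2 gate genes by that choice, which lowers gate gene levels but does not set which 2 are missing. Pooled over the 561 cells, Sall1 was at 2.92 and Siglech at 3.16 CPM. P2ry12 was at 86.5, Tmem119 at 107 and Gpr34 at 119 CPM. Of genes outside the gate, also pooled over these cells, Cx3cr1 was at 519 CPM, between its levels in all injury-responsive microglia and in macrophage-like cells. Ms4a7, a membrane protein gene of macrophages that enter the brain, was at 1056 CPM in them against 606 ± 125 CPM in macrophage-like cells, and Ccr2, the monocyte chemokine receptor, was at 12.8 CPM against 245 CPM. These values do not settle whether the 561 cells are microglia or macrophages, and they are counted as injury-responsive microglia here because the rule selects them. Values without the Gpnmb-led cells are given below for some genes only. Other genes and the counts of the lists are given with these cells in, and the part of these cells there was not tested.

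Injury-responsive microglia were deeper than the remaining ones, with a median of 24081 UMIs and 4675 genes against 13895 UMIs and 3692 genes, and the macrophage-like cells lay between them at 19955 UMIs. A doublet score marked 4.12% of injury-responsive and 2.86% of remaining microglia, and 10.5% of the Gpnmb-led cells. Any pair of libraries shared 3 to 15 cell barcodes, at most 0.295% of the smaller library.

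Outside the genes of the selection, injury-responsive microglia differed from the remaining microglia in the secreted matrix protein osteopontin, in fatty acid carriers and in a lectin of damaged lysosomes, among other genes. Spp1, Fabp5 and Lgals3 were not particular to them, since macrophage-like cells held Spp1 at 31071 ± 9394 CPM, Fabp5 at 2420 ± 352 CPM and Lgals3 at 2409 ± 349 CPM, against 12470, 962 and 428 CPM in injury-responsive microglia. Of 8198 genes with at least 10 CPM in either set, 317 (3.87%) were at least 1.5-fold higher in 8 of 8 mice and 568 (6.93%) at least 1.5-fold lower. The median log2 ratio over all of them was -0.14. Because the cells were chosen within this comparison it is a description with no test, and each ratio is log2(CPM + 1) of injury-responsive minus remaining microglia, as the median over mice. Without the Gpnmb-led cells, an alternative added after the data were seen, 215 genes were higher and 382 lower, of which 197 and 340 were among those counted with all cells.

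Spp1, which encodes osteopontin, stood at 10307, 13427, 12428 and 14773 CPM in injury-responsive microglia of the saline mice and at 7752, 8012, 19240 and 13819 CPM in those of the ancrod mice. It stood at 205 to 509 CPM in the remaining microglia, so that the sets did not overlap in any mouse, and its median log2 ratio was 5.15. Free RNA in near-empty droplets held Spp1 at 12711 CPM as well, beside 367 ± 98.5 CPM in the remaining microglia. Without the Gpnmb-led cells Spp1 was at 8580 ± 2691 CPM (log2 ratio 4.62), and with every cell thinned to 2000 UMIs before the selection its log2 ratio was 3.32. Cd5l, a secreted inhibitor of apoptosis made by macrophages, followed at 183 ± 37.3 against 12.8 ± 4.596 CPM (log2 ratio 3.85). It was lower in macrophage-like cells, at 21.6 CPM, and hardly moved when the Gpnmb-led cells were left out (180 CPM, log2 ratio 3.78).

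The other genes with the highest ratios after those of the selection were Fabp5, a fatty acid carrier (log2 ratio 3.26), Lgals3, a lectin that binds damaged lysosomes (3.13), Mmp8, a collagenase (3.11), Gal, the neuropeptide galanin (3.01), Hpse, which cleaves heparan sulfate (2.90), Myof, a membrane repair protein (2.83), Ms4a7 (2.79), Emp1, a membrane protein (2.71), and Gm1673 and Gm21188 (2.82 and 2.73). Several of these rested on the Gpnmb-led cells. Without them Gal went from 15.9 to 0.685 CPM, the level of the remaining microglia, and its log2 ratio from 3.01 to -0.12. Mmp8 went from 10.0 to 2.72 CPM, Myof from 27.5 to 7.96 CPM, Hpse from 38.5 to 22.5 CPM and Emp1 from 28.3 to 7.74 CPM. Fabp5 and Lgals3 stayed high, at 608 CPM (log2 ratio 2.59) and 267 CPM (2.48). With cells thinned to 2000 UMIs before the selection the log2 ratio was 2.39 for Fabp5, 2.25 for Lgals3 and 0.48 for Mmp8. These are ratios of another selection of cells and not ratios at equal depth.

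**Figure D2:**
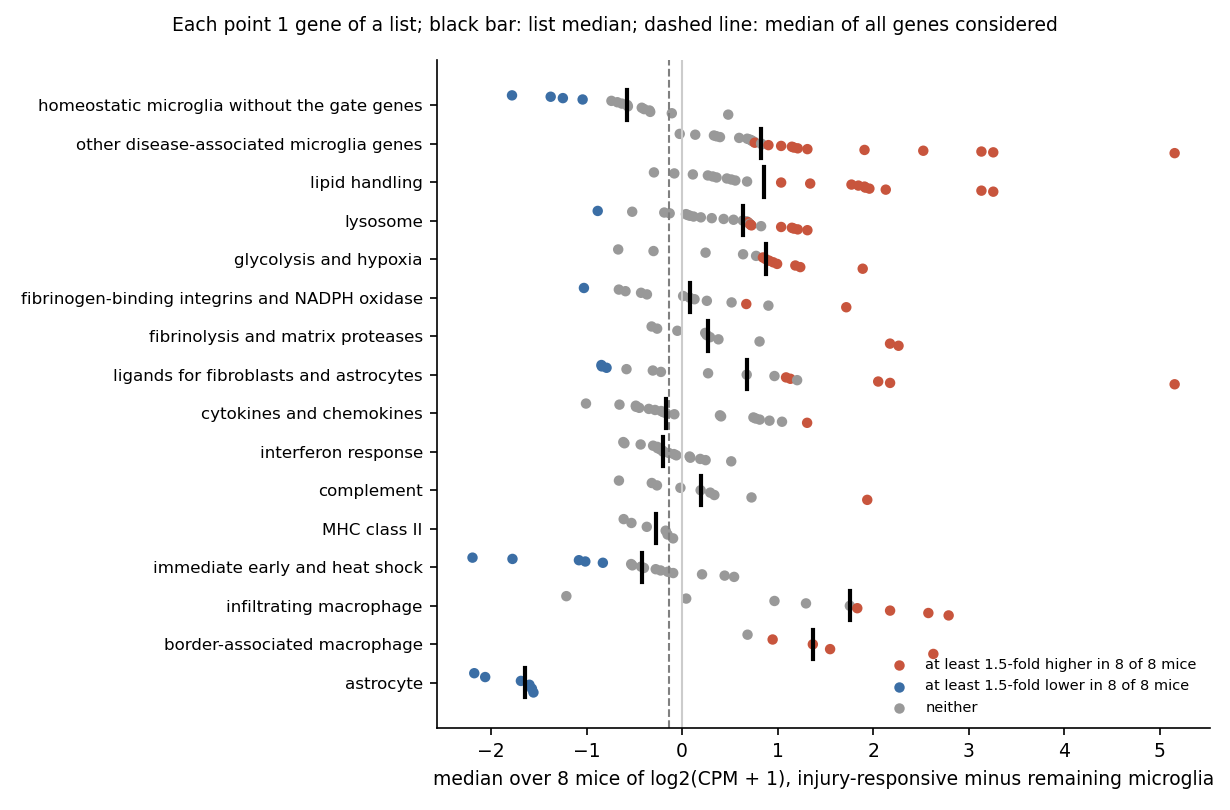
Median log2 ratio over 8 mice of each gene of 16 lists in injury-responsive against remaining microglia, with genes counted as higher or lower in color, list medians as black bars and the median of all genes considered (-0.14) as a dashed line. Lipid, lysosome and glycolysis genes lie mostly to the right (list medians 0.86, 0.64 and 0.87), homeostatic genes to the left (-0.57).

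Of 25 other genes of disease-associated microglia, 12 were counted as higher and none as lower, with a median log2 ratio of 0.83. This list comes from other conditions in which Trem2 signals, and it overlaps the lipid and lysosome lists. Apoe, the main lipid carrier of the brain, stood at 39745 ± 3736 CPM in injury-responsive and 19789 ± 2819 CPM in remaining microglia (log2 ratio 1.04). Lyz2, a lysozyme of myeloid cells, stood at 5833 ± 1242 against 974 ± 142 CPM (2.52). With Gpnmb-led cells left out it was at 2215 CPM (1.13). Tyrobp was counted as higher (0.76), whereas Trem2 itself was at 1775 ± 77.3 against 1389 ± 58.3 CPM (0.36) and Axl, a receptor for dying cells, at 113 against 113 CPM (-0.02).

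Of 20 lipid handling genes considered, 10 were higher and none lower, with a median of 0.86. The fatty acid carriers Fabp5, at 962 ± 110 against 93.7 ± 14.2 CPM, and Fabp3 (log2 ratio 2.13) stood furthest apart, followed by the scavenger receptors Cd36 (1.96) and Msr1 (1.84), the lipid droplet coat Plin2, at 928 ± 133 against 258 ± 38.8 CPM (1.92), the cholesterol hydroxylase Ch25h (1.91), the apolipoprotein Apoc1 (1.77) and the lysosomal lipase Lipa (1.34). The cholesterol exporters Abca1 and Abcg1 had ratios of 0.52 and 0.56 and were not counted.

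Of 25 lysosome genes considered, 9 were higher and 1 lower, with a median of 0.64. The proteases Ctsb (log2 ratio 1.31) and Ctsd (1.17) led, with Ctsd at 14312 ± 1447 against 6389 ± 211 CPM, above its 6874 CPM in macrophage-like cells. The membrane proteins Cd68 (1.21) and Cd63 (1.15), the enzymes Gusb (0.73), Tpp1 (0.71) and Ctsa (0.70) and the sphingolipid activator precursor Psap (0.69) were also among those counted as higher. Ctss was at 3605 against 4141 CPM, and Lgmn at 2462 against 2426 CPM. The 1 lower gene was Tfeb, a transcription factor of lysosome genes, at 40.3 ± 3.94 against 73.3 ± 7.40 CPM (-0.88).

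Of 15 homeostatic microglial genes beyond the gate, 4 were lower and none higher, with a median of -0.57. These were the fructose transporter Slc2a5, at 15.2 ± 2.91 against 55.2 ± 8.41 CPM (-1.78), the selectin ligand Selplg (-1.38), the crystallin Crybb1 (-1.25) and the TGF-beta receptor Tgfbr1 (-1.04). Cx3cr1, the fractalkine receptor, stood at 1103 against 1612 CPM (-0.57) and Csf1r, the receptor that keeps microglia alive, at 882 against 1373 CPM (-0.63). Fcrls, an Fc receptor-like gene of microglia, had a positive ratio (0.48) and was not counted. Of the gate genes Siglech was lowest, at 154, 102, 104 and 125 CPM in the saline mice and 111, 141, 98.9 and 142 CPM in the ancrod mice against 400 to 568 CPM in remaining microglia (-1.89), followed by P2ry12 (-1.43), Tmem119 (-1.01), Sall1 (-0.99) and Gpr34 (-0.54). With cells thinned to 2000 UMIs before the gate and the selection were applied, the log2 ratio was -0.73 for Siglech and -0.63 for P2ry12. Fewer cells then passed the gate, which rests on these same genes. These are ratios of another selection of cells and not ratios at equal depth.

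Fibrin engages microglia through CD11b and CD18, the subunits encoded by Itgam and Itgb2, and downstream of it the NADPH oxidase makes superoxide. Of 13 genes of these groups 2 were higher and 1 lower, with a median of 0.08. Itgam stood at 460, 386, 398 and 322 CPM in injury-responsive microglia of the saline mice and 411, 351, 355 and 335 CPM in those of the ancrod mice, against 414 to 565 CPM in remaining microglia (log2 ratio -0.37). Itgb2 stood at 213 ± 13.7 against 177 ± 10.3 CPM (0.26). The membrane subunits of the oxidase, Cybb (1.72) and Cyba (0.67), were counted as higher, whereas the cytosolic subunit Ncf1 had a ratio of -0.43. Icam1, an adhesion ligand of CD11b, was lower at 367 ± 25.8 against 715 ± 82.7 CPM (-1.03). Of 10 genes of fibrinolysis and matrix proteolysis considered, Adam8 (2.26) and Anxa2, a plasminogen and tPA co-receptor (2.18), were higher. The urokinase gene Plau was at 85.8 against 66.1 CPM.

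Of 15 ligands that act on fibroblasts and astrocytes, 5 were higher and 3 lower, with a median of 0.68. Besides Spp1 these were fibronectin, Fn1 (2.18), thrombospondin 1, Thbs1, which activates latent TGF-beta (2.05), the TAM receptor ligand Gas6 (1.13) and the cytokine Mif (1.09). Thbs1 was concentrated in the Gpnmb-led cells, at 457 ± 172 CPM against 42.5 ± 19.3 CPM in cells led by Igf1. Lower were 2 ligands of the EGF receptor, Tgfa (-0.84) and Hbegf (-0.79), and the PDGF ligand Pdgfb, at 145 ± 23.2 against 261 ± 29.95 CPM (-0.84). Tgfb1 was at 298 against 451 CPM (-0.58) and was not counted.

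Inflammatory genes did not move as a block. Of 19 cytokine and chemokine genes considered only Il1rn, the interleukin-1 receptor antagonist, was counted as higher (1.31) and none as lower, with a median of -0.17 against -0.14 for all genes. Tnf stood at 566 ± 136 against 657 ± 149 CPM, Il1b at 529 ± 122 against 410 ± 111 CPM and Ccl12, a monocyte chemokine, at 338 ± 58.4 against 647 ± 87.0 CPM. None of 17 interferon response genes or 6 MHC class II genes was counted in either direction, with medians of -0.20 and -0.27. Of 9 complement genes only properdin, Cfp, was higher (1.94), and C1qa, C1qb and C1qc had ratios of 0.34, 0.19 and 0.29.

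Of 13 genes of glycolysis and hypoxia 8 were higher and none lower, with a median of 0.87. They comprised Hilpda, which blocks lipid droplet breakdown (1.89), and the enzymes Pkm (1.24), Pgam1 (1.19), Gapdh (0.99), Pgk1 (0.95), Aldoa (0.91), Tpi1 (0.87) and Ldha (0.85). The entry steps differed, with hexokinase 2, Hk2, at 257 against 400 CPM (-0.67) and the glucose transporter Slc2a1 at 65.0 against 81.0 CPM (-0.30). The ferritin light chain Ftl1 stood at 7726 ± 545 against 3304 ± 261 CPM (1.18) and was the 1 of 8 iron and heme genes counted. Of 16 immediate early and heat shock genes 5 were lower and none higher: Hspa1b (-2.19), Hspa1a (-1.78), Btg2 (-1.08), Egr1 (-1.01) and Jun (-0.83). These genes also respond to tissue dissociation, and Fos was at 1160 against 1240 CPM.

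Genes of infiltrating and border-associated macrophages were in part higher. Of 9 infiltrating macrophage genes considered, 4 were counted as higher, with a median of 1.76: Ms4a7, F13a1 (2.58), Fn1 and Chil3 (1.83). The genes that define monocytes stayed low. Ccr2 was at 5.15 against 6.79 CPM, Plac8 at 4.05 against 11.1 CPM and Ly6c2 at 3.29 against 2.24 CPM. Macrophage-like cells had 245, 534 and 159 CPM. They were picked by genes that include Ccr2 and Plac8, so these levels in them are in part set by the choice. Ly6c2 had no part in it. Ms4a7 stood at 234, 236, 262 and 301 CPM in the saline mice and 319, 459, 292 and 295 CPM in the ancrod mice, against 20.5 to 63.9 CPM in remaining microglia. Without the Gpnmb-led cells Ms4a7 was at 135 CPM (log2 ratio 1.59), and F13a1 went from 132 to 61.2 CPM (1.61). Of 5 border-associated macrophage genes considered, Pf4 (2.63), Cbr2 (1.55), Folr2 (1.37) and Stab1 (0.95) were higher. Pf4 went from 140.0 to 78.2 CPM without the Gpnmb-led cells (2.04). The defining scavenger receptors Cd163 and Lyve1 were at 5.46 and 6.93 CPM. The summed level of 14 infiltrating macrophage genes was 833 to 1073 CPM in injury-responsive microglia of the saline mice and 867 to 1220 CPM in those of the ancrod mice, against 191 to 335 CPM in the remaining microglia.

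Astrocyte transcripts were lower. Of 6 astrocyte genes all were counted as lower, with a median of -1.64. The 1 neuron gene considered, Syt1, a synaptic vesicle protein (-1.83), was not counted. The 15 genes with the lowest ratios included Gfap (-2.06), Aqp4 (-2.17), Negr1 (-2.18), Rorb (-2.11), Npas3 (-2.01), Lsamp (-2.003), Cadm2 (-2.002), Gabrb1 (-1.98) and Mt3 (-1.98). Droplets of at most 100 UMIs, which hold free RNA, had Gfap at 489 CPM and Aqp4 at 137 CPM, against 15.9 and 5.71 CPM in injury-responsive microglia and 76.6 and 28.6 CPM in the shallower remaining microglia. The part of free RNA in these ratios was not tested. The ratios also moved with the gate. With at least 2 gate genes the log2 ratio was -3.94 for Aqp4 and -3.90 for Gfap, and with at least 4 it was -0.66 and -1.67. Cacnb2 was at -3.35 and -2.56 in these settings. The part of other cells that passed the gate was not tested. With every cell thinned to 2000 UMIs before the selection, 16 genes were counted as lower and 72 as higher, and the log2 ratio was -0.06 for Gfap and -0.07 for Mt3 but -1.36 for Cacnb2. These are ratios of another selection of cells, with levels from all their UMIs, and not ratios at equal depth. The gene with the lowest ratio, Cacnb2, a calcium channel subunit, stood at 27.7 ± 6.12 against 215 ± 47.0 CPM (-2.96), followed by Pcdh9, a protocadherin (-2.38), and P3h2, a collagen prolyl hydroxylase, at 40.6 ± 11.9 against 207 ± 68.8 CPM (-2.36). Setbp1 (-2.34), Hspa1b and Ccdc192 (-1.98) completed the 15. Both mural cell genes considered, Rgs5 (-1.88) and Vtn (-1.79), were lower. Among the remaining marker lists of other cell types, Cspg4, a proteoglycan of pericytes and oligodendrocyte precursors, was higher (2.32), 1 of 2 genes of the oligodendrocyte lineage considered, and Csf3r, a receptor shared by microglia and neutrophils, was lower (-1.03). No T cell, endothelial, fibroblast or red blood cell gene of the lists reached a mean of 10 CPM over the 8 mice in either set, although Col1a1, a fibroblast collagen, was at 20.3 CPM in injury-responsive microglia of ancrod mouse 4. The rule left out cells rich in Col1a1 and Col1a2 or in Cldn5 and Flt1, so low fibroblast and endothelial levels are in part set by the choice.

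Across all non-dividing microglia the level of these genes followed the rank of the 5-gene sum. The cells were ranked in 4 equal parts, of which the 2 lowest were joined because cells with a sum of 0 reached into both. Ctsd and Apoe climbed in steps, Ctsd from 5253 ± 256 CPM in the 2 lowest parts to 7917 ± 583 CPM in the third and 14106 ± 1443 CPM in the highest. Spp1 went from 224 ± 91.4 to 555 ± 176 and 11888 ± 3646 CPM, and Cd5l from 4.23 ± 1.598 to 23.3 ± 8.00 and 177 ± 36.7 CPM. Siglech went down from 551 ± 61.8 to 362 ± 25.5 and 130 ± 21.0 CPM. Within the injury-responsive cells the order went on, with Spp1 at 1273, 3369, 8383 and 27614 CPM over 4 equal ranked parts and Siglech at 232, 185, 95.2 and 36.5 CPM. Mrc1, the mannose receptor of border-associated macrophages, ran the other way within them, from 135 CPM in the lowest part to 25.7 CPM in the highest. Trem2 was flat over these parts, at 1725 to 1796 CPM. The median depth rose along the same order, from 19858 UMIs in the lowest part of the injury-responsive cells to 31766 in the highest, and its part was not tested. Gpnmb gave 29.8% of the summed score, and the Gpnmb-led cells had Mrc1 at 36.5 CPM and a median of 30146 UMIs. The part of a changing mix of cells led by different genes in this order was not tested either.

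**Figure D3:**
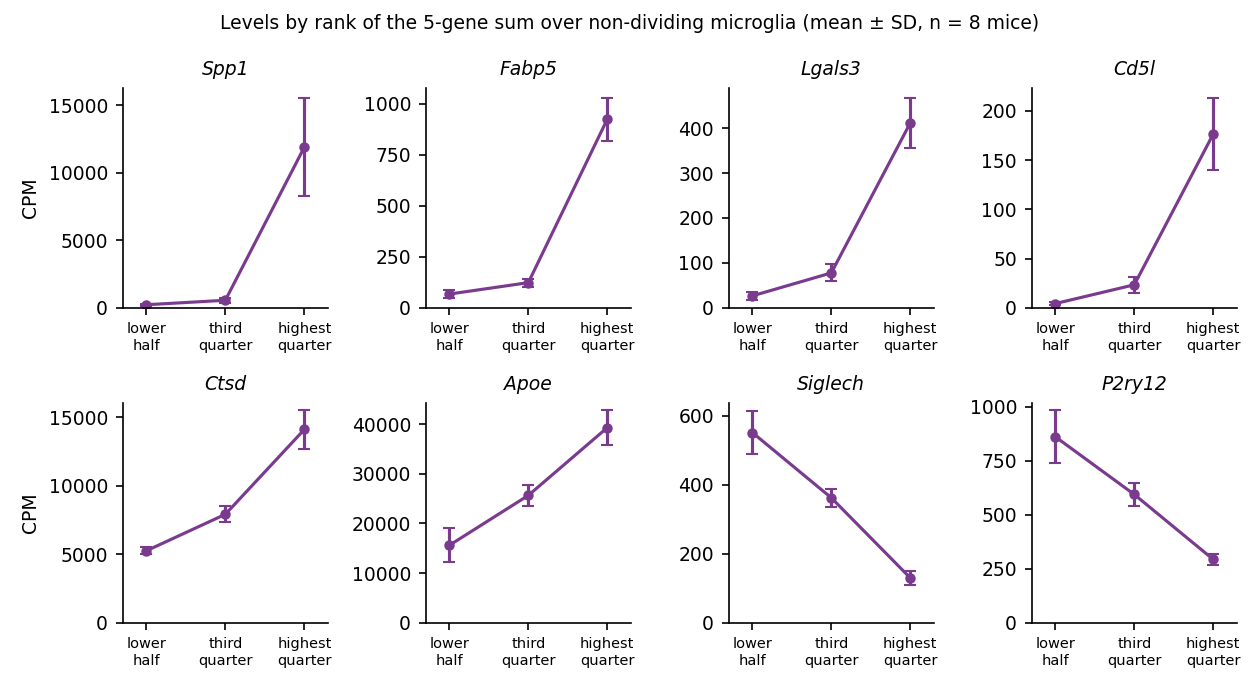
Levels (CPM, mean ± SD over 8 mice) of 8 genes in the 2 lowest, the third and the highest of 4 equal parts of non-dividing microglia, ranked by the 5-gene sum. Spp1, Fabp5, Lgals3 and Cd5l rise mostly at the last step, Ctsd and Apoe at both, and Siglech and P2ry12 go down.

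The injury-responsive cells were not uniform. Cst7 was the highest of the 5 selection genes in 1521 cells (34.2%), Igf1 in 1156 (26.0%), Lpl in 891 (20.1%), Gpnmb in 848 (19.1%) and Itgax in 27. Cst7-led cells lay nearest to the remaining microglia, with P2ry12 at 447 ± 38.4 CPM, Sall1 at 119 ± 13.5 CPM and Spp1 at 2271 ± 464 CPM. Lpl-led cells had Spp1 at 9058 ± 3967 CPM and the highest Tnf, at 945 ± 179 CPM, above the 657 CPM of the remaining microglia. Igf1-led cells had Spp1 at 14202 ± 4365 CPM, the highest Cd5l, at 311 ± 62.6 CPM, and border-associated macrophage transcripts, with Mrc1 at 212 ± 101 CPM, Lyve1 at 21.0 ± 14.2 CPM and Cd163 at 16.8 ± 11.7 CPM. Gpnmb-led cells had the highest Spp1, at 24481 ± 7601 CPM, and Fabp5, at 2023 ± 264 CPM, and the lowest P2ry12, at 138 ± 15.8 CPM.

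Between Gpnmb-led and Igf1-led cells, 169 of 7938 genes (2.13%) were at least 1.5-fold higher and 166 (2.09%) lower in 8 of 8 mice. This too is a description within the cells that the rule chose. After Gal (log2 ratio 4.73) the highest in Gpnmb-led cells were Cd24a, a surface glycoprotein (3.91), Napsa, an aspartic protease (3.86), St18, a zinc finger factor (3.76), and Sirpb1c (3.58). Next came the transcription factor Runx3, at 73.7 ± 25.3 against 6.90 ± 4.04 CPM (3.52), Papss2 (3.45) and Thbs1 (3.31). Lower were Lyve1 (-3.56), Cd163 (-3.35), the lectin Clec10a (-2.78), Mrc1 (-2.67) and the inflammatory genes Tnfsf9 (-2.44), Acod1 (-2.28) and Ch25h (-2.16). Of 19 cytokine and chemokine genes 9 were lower in Gpnmb-led cells, with a median of -1.03. With the cells marked as doublets removed, 154 and 155 of these genes were counted again. Of the Gpnmb-led cells, the 134 in which 5 gate genes were detected had Ms4a7 at 341 CPM and Gal at 2.79 CPM, against 1056 and 82.1 CPM in the 561 with 3. Spp1 stood at 24425 and 23659 CPM in them. These values are pooled over cells and were not tested.

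**Figure D4:**
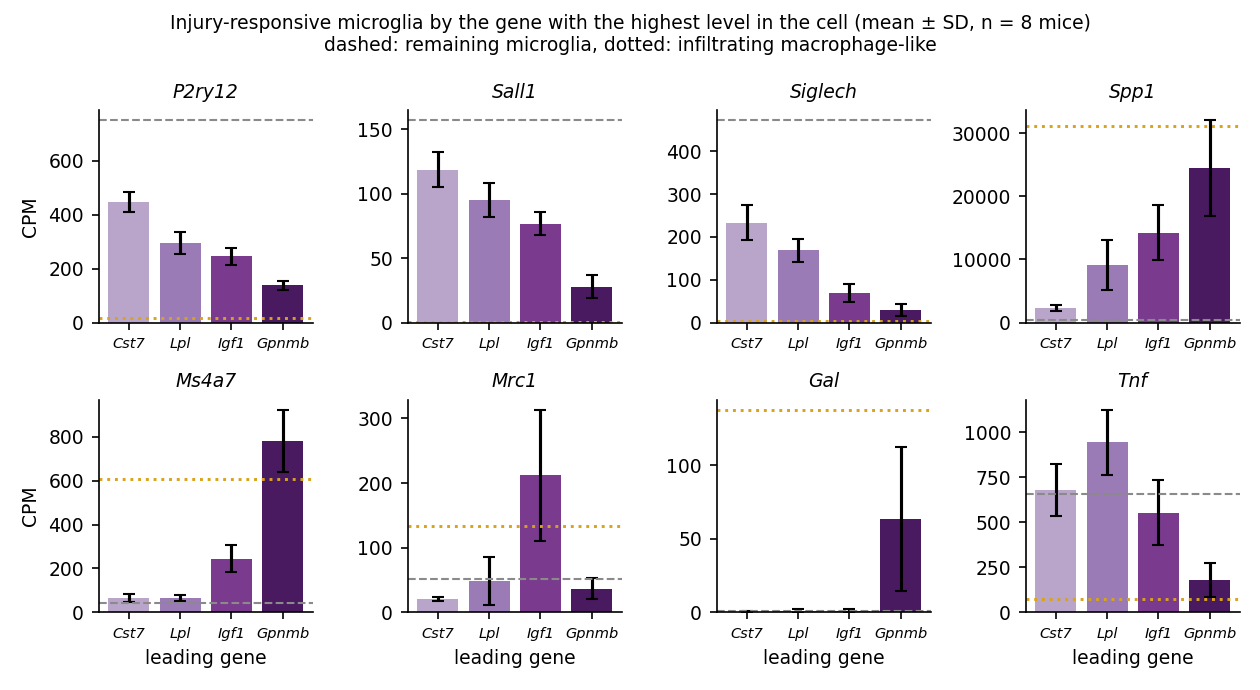
Levels (CPM, mean ± SD over 8 mice) of 8 genes in injury-responsive microglia led by Cst7, Lpl, Igf1 or Gpnmb, with the mean of the remaining microglia (dashed) and of infiltrating macrophage-like cells (dotted). P2ry12, Sall1 and Siglech go down and Spp1 goes up from Cst7-led to Gpnmb-led cells, Mrc1 is highest in Igf1-led cells and Gal is above 2 CPM in Gpnmb-led cells alone.

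Division was more frequent where the 5-gene sum was high. Before dividing cells were removed, 512 of the 4955 cells (10.3%) in the highest 25% had at least 3 of the 5 division genes detected, against 1.59% of the cells below the cut. The share was 7.40, 12.03, 9.68 and 10.9% in the saline mice and 11.7, 6.02, 13.2 and 10.6% in the ancrod mice, and in each mouse above its share below the cut (0.750 to 2.56%). With each cell thinned to 5000 UMIs, at least 2 division genes were detected in 7.76% against 1.58%, in 4562 and 13523 cells deep enough. These division genes had no part in the sum, but both were read from the same cells, so no test was made.

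**Figure D5:**
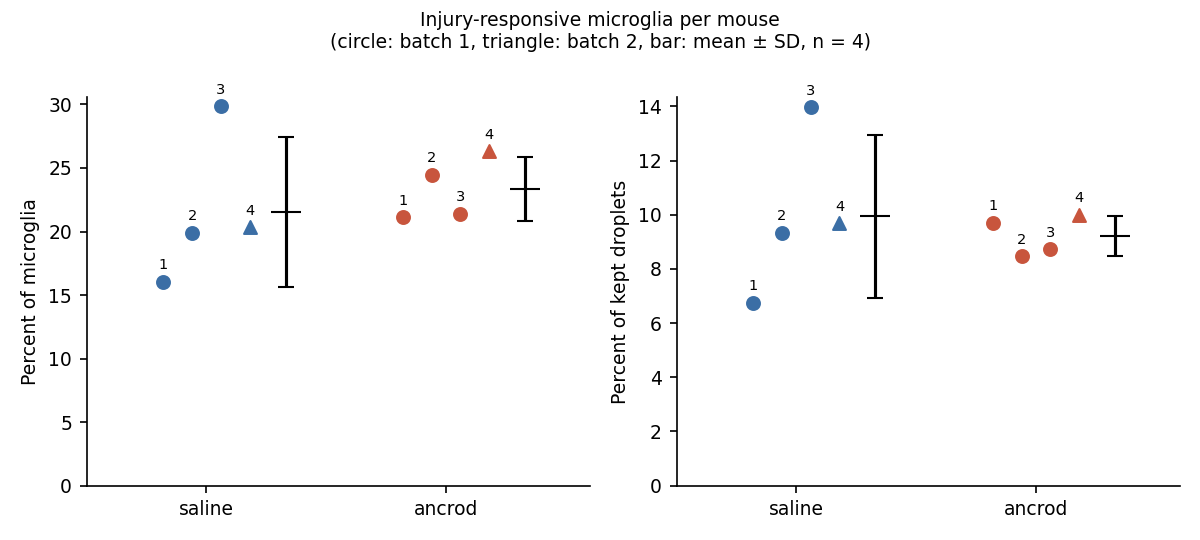
Injury-responsive microglia as a percent of microglia (left) and of kept droplets (right) in each mouse, with mean ± SD of 4 mice beside them. The ancrod mice lie within the range of the saline mice in both panels, and saline mouse 3 is highest in both.

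The comparison of ancrod with saline asks whether depletion of fibrinogen alters the share or the state of these cells. Shares in a cell suspension do not give the number of cells in the tissue. The study saw a trend to larger shares of reactive fibroblasts and macrophages with ancrod. It gives easier dissociation of less fibrotic tissue as the likely reason, which was not tested here. Injury-responsive cells made up 16.04, 19.9, 29.9 and 20.3% of microglia in the saline mice and 21.1, 24.4, 21.4 and 26.3% in the ancrod mice. All 4 ancrod values lay between the lowest and the highest saline value. The means were 21.5 ± 5.87% (SD, n = 4) and 23.3 ± 2.51% (n = 4), a difference of 1.80 percentage points (two-sided exact permutation test over 70 arrangements, p = 0.571, adjusted over 2 shares p = 0.743). The smallest p this design can give is 0.0286. Without saline mouse 3 the difference was 4.57 points (exact permutation p = 0.0571 over 35 arrangements), and without saline mouse 1 it was -0.0336. Within batch 1 it was 0.400 points (exact permutation p = 1.00, smallest possible 0.1), and batch 2 held 1 mouse a group, 5.99 points apart. As a share of kept droplets they made up 6.76, 9.33, 13.97 and 9.68% and 9.71, 8.46, 8.73 and 10.0%, with means of 9.94 ± 2.99% and 9.22 ± 0.744% (difference -0.711 points, exact permutation p = 0.743, adjusted p = 0.743). Without saline mouse 3 this difference was 0.635 points. Microglia themselves made up 42.1, 46.9, 46.8 and 47.6% of kept droplets in the saline mice and 45.98, 34.6, 40.8 and 37.97% in the ancrod mice, 3 of 4 ancrod mice below all saline mice, and the part of this in the share of kept droplets was not tested. The difference in injury-responsive cells as a share of kept droplets was -1.05 points in batch 1 (exact permutation p = 0.8) and 0.315 in batch 2.

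The 5 selection genes were tested in all non-dividing microglia, where the cut on their sum was not applied. Of 13848 genes tested none passed at an adjusted p of 0.05 (edgeR quasi-likelihood test, Benjamini-Hochberg), 535 had an unadjusted p under 0.05, 1.68% of the genes as higher and 2.18% as lower, and DESeq2 called 2. Lpl stood at 119, 120, 161 and 104 CPM in the saline mice and 82.6, 90.8, 126 and 218 CPM in the ancrod mice, with ancrod mouse 4 above and ancrod mice 1 and 2 below all saline mice (log2 fold change 0.07 ± 0.30 SE). Gpnmb stood at 180, 194, 245 and 268 against 175, 249, 247 and 269 CPM (0.12 ± 0.16). Igf1 stood at 157, 210, 311 and 162 against 138, 170, 240 and 221 CPM (-0.10 ± 0.27). Cst7 and Itgax had log2 fold changes of 0.05 ± 0.14 and 0.14 ± 0.17. The adjusted p by edgeR was 0.957 to 0.982 for the 5 genes, and the groups overlapped for each of them.

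Within injury-responsive microglia no gene passed between ancrod and saline mice. Of 11851 genes tested by the edgeR quasi-likelihood test none had an adjusted p under 0.05, 264 (2.23%) had an unadjusted p under 0.05 as higher with ancrod and 132 (1.11%) as lower, and DESeq2 called 3. On simulated counts with the same libraries this test called 84.0% of genes changed by 1 on the log2 scale and 41.4% of those changed by 0.5. It also called 6 unchanged genes. In the other comparisons the shares called were 64.9 to 68.7% and 22.2 to 31.3%. The simulated spread followed the trend over genes of like level, without the spread of each gene itself, so recovery of real genes can be lower. Spp1, given above for each mouse, had a log2 fold change of -0.04 ± 0.27, with the ancrod mice both below and above all saline mice. Fabp5 had one of -0.04 ± 0.12, at 980 ± 119 CPM in saline and 945 ± 116 CPM in ancrod mice.

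The genes with the smallest p whose groups did not overlap are named although none passed (edgeR adjusted p = 0.999 for each), beside a background of 0.928% of genes whose groups lay apart as higher and 0.928% as lower. Tlr8, an RNA sensor of endosomes, stood at 3.99, 2.47, 3.00 and 2.85 CPM in the saline mice and 6.27, 7.40, 4.33 and 4.13 CPM in the ancrod mice (log2 fold change 0.89 ± 0.21 SE). Arhgap26, a GTPase activating protein, stood at 17.8, 14.5, 16.7 and 17.2 against 22.7, 31.3, 21.3 and 25.9 CPM (0.62 ± 0.12), and was called by DESeq2 (adjusted p = 0.0328). Snhg11, a neuronal RNA, also called by DESeq2 (adjusted p = 0.0197), stood at 0.404 to 0.712 against 1.23 to 3.37 CPM (2.15 ± 0.40). Bgn and Serpinh1, a matrix proteoglycan and a collagen chaperone of fibroblasts, had log2 fold changes of 1.79 ± 0.39 and 1.43 ± 0.33. In free RNA these fibroblast transcripts were at 67.8 ± 32.5 and 157 ± 51.2 CPM in saline libraries and 145 ± 70.6 and 306 ± 162 CPM in ancrod libraries, and Snhg11 at 49.7 ± 31.3 and 121 ± 107 CPM, which is far above their level in the cells, and its part was not tested. Lower were Sall3, a transcription factor, at 72.8, 54.9, 54.7 and 81.0 against 50.1, 35.2, 40.8 and 42.8 CPM (-0.62 ± 0.14), Esrrg, an orphan nuclear receptor (-1.48 ± 0.34), Gxylt2, a glycosyltransferase (-0.78 ± 0.20), Zfp202, a zinc finger repressor (-0.60 ± 0.15), and Lekr1 (-0.57 ± 0.13). The third DESeq2 call was Vtn, vitronectin, a product of pericytes (log2 fold change -2.71, DESeq2 adjusted p = 0.0115), which was at 155 CPM in free RNA and 3.81 CPM in these cells.

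Lists are described within these cells by counts, with 2.23% of all genes at an unadjusted p under 0.05 as higher and 1.11% as lower as the background. Of 14 infiltrating macrophage genes 3 were higher at that level, Ms4a7 (log2 fold change 0.41 ± 0.14), F13a1 (0.30 ± 0.13) and Ahnak (0.80 ± 0.24), and 12 of 14 fold changes were positive, beside 6282 of all 11851 genes (edgeR adjusted p = 0.999 for each of the 3). Of 16 ligands 3 were higher at that level. Thbs1 stood at 96.5, 84.7, 122 and 106 CPM in the saline mice and 183, 280, 144 and 113 CPM in the ancrod mice (0.82 ± 0.23), 3 of 4 ancrod mice above all saline mice. Vegfa stood at 19.0 ± 5.70 against 31.4 ± 9.43 CPM (0.71 ± 0.23), and Bmp2 was at 1.72 CPM over all mice. Thbs1 and Ms4a7 are genes of the Gpnmb-led cells, whose share among injury-responsive microglia was 14.9, 17.9, 15.7 and 20.3% in the saline mice and 22.3, 24.6, 20.6 and 17.3% in the ancrod mice, and its part was not tested. Of 23 lipid handling genes Cd36 was higher (0.67 ± 0.25) and Fabp3 (-0.46 ± 0.16) and Apoc1 (-0.38 ± 0.15) were lower at that level. Of 13 integrin and oxidase genes only Cybb was, at 219, 234, 244 and 188 against 266, 319, 241 and 254 CPM (0.30 ± 0.11). Itgam had a log2 fold change of -0.10 and Itgb2 of -0.10. Of 26 lysosome genes 2 were lower and none higher at that level, and 23 of 26 fold changes were negative, beside 5569 of all 11851 genes, with a median of -0.07. Other lists also had mostly negative fold changes, with 14 of 15 homeostatic genes negative (median -0.10, none at that level), 18 of 25 other disease-associated genes and 14 of 18 interferon response genes. Transcripts of fibroblasts (3 of 4 tested) and neurons (3 of 4) were also higher at that level.

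In the remaining microglia none of 13412 genes passed by the edgeR test either (DESeq2 15), 3.71% had an unadjusted p under 0.05 as higher with ancrod and 3.69% as lower, and the groups lay apart in 1.35% as higher and 2.88% as lower. In all microglia the groups lay apart in 0.686% as higher and 1.6% as lower.

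The ancrod effect was also compared between injury-responsive and remaining microglia. Of 13397 genes tested for this difference 5 (0.0373%) passed (edgeR quasi-likelihood test with the mouse as a block), and 4 of them belong to smooth muscle: Myh11, the smooth muscle myosin (difference in log2 fold change 6.40, adjusted p = 0.00851), Acta2, smooth muscle actin (5.25, adjusted p = 0.0194), Sncg, a synuclein (5.84, adjusted p = 0.00672), and Mustn1, a muscle nuclear protein (4.30, adjusted p = 0.00534). In injury-responsive microglia Myh11 stood at 0, 0.0706, 0.135 and 0.285 CPM in the saline mice and 0, 12.2, 3.17 and 0.306 CPM in the ancrod mice, and in the remaining microglia at 1.72, 4.20, 1.19 and 2.10 against 0.345, 1.74, 0.118 and 0.402 CPM. These UMIs sat in few cells. In ancrod mouse 2, 1 cell held 135 of the 138 Myh11 UMIs, 1 cell 459 of the 470 Acta2 UMIs and 1 cell 52 of the 55 Sncg UMIs, and in ancrod mouse 3, 40 of 41 Myh11 UMIs lay in cells marked as doublets. No gene passed with doublets removed or without ancrod mouse 2. The fifth, Ly6a, a surface antigen of endothelial and stem cells that interferon induces, had a difference of -0.67 (adjusted p = 0.0265). It was also not called with a higher UMI minimum, with log values summed in the selection, or without saline mouse 1, 2 or 3 or ancrod mouse 3. It stood at 22.9, 19.3, 10.8 and 40.0 against 14.4, 19.8, 13.6 and 14.5 CPM in injury-responsive and at 31.04, 24.3, 12.7 and 58.2 against 26.7, 42.6, 27.2 and 29.1 CPM in remaining microglia. The groups overlapped in both sets, and Ly6a was at 213 CPM in free RNA. At an unadjusted p under 0.05 the difference was positive in 354 genes (2.64%) and negative in 849 (6.34%), against 478 and 479 with DESeq2's size factors in place of TMM scaling.

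No gene of the interferon response list, which does not hold Ly6a, passed this comparison in the edgeR test with all 8 mice. Without ancrod mouse 4, edgeR called 23 genes, among them Ifi27l2a, Ifitm3 and Irf7. The list was not recomputed under another scaling. Of 18 tested, all 18 had a negative difference and 9 were negative at an unadjusted p under 0.05, beside 57.6% of all genes with a negative difference and 6.34% at that level. Other lists were shifted too, not all in the same direction. A positive difference was found in 6 of 7 MHC class II genes (0 at that level) and 6 of 8 border-associated macrophage genes (2). The difference was negative in 23 of 25 other disease-associated genes (12 at that level), 24 of 26 lysosome genes (7), 12 of 14 glycolysis and hypoxia genes (7), 18 of 20 cytokine and chemokine genes (1) and 11 of 15 homeostatic genes (5). For the interferon response genes the median log2 fold change with ancrod was -0.10 in injury-responsive and 0.27 in remaining microglia. The groups overlapped in both, with a summed level of 1533 to 2776 CPM in saline and 1627 to 2159 CPM in ancrod mice in injury-responsive and 1330 to 2611 against 1821 to 2426 CPM in remaining microglia. Ifi27l2a, an interferon-induced mitochondrial protein, stood at 507, 519, 381 and 592 CPM in saline and 432, 402, 332 and 448 CPM in ancrod mice in injury-responsive microglia and at 376, 380, 299 and 541 against 540, 491, 391 and 435 CPM in remaining microglia, where saline mouse 3 was the lowest and saline mouse 4 the highest saline mouse in both sets (difference -0.61, edgeR adjusted p = 0.119). DESeq2 called it (adjusted p = 0.00118), with Ifitm3, which blocks virus entry (-0.51, DESeq2 adjusted p = 0.0154), Ly6e (-0.30, DESeq2 adjusted p = 0.00964) and Lgals3bp (-0.35, DESeq2 adjusted p = 0.0125), all induced by interferon, among 10 genes. Free RNA held Ifitm3 at 594 CPM, and its part was not tested.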

How the data were processed

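Single-cell suspensions were profiled by 10x 3′ RNA sequencing. The deposited values are raw UMI counts of 21848 genes in every droplet, made by the authors with Cell Ranger 7.1.0 (STAR, GRCm39 per the labels), introns included. Droplets with at least 2000 UMIs and under 20% mitochondrial UMIs were kept. Doublets were scored with scanpy 1.11.5 and kept unless stated. No clustering was used. Members, gene lists and motifs were chosen with earlier results of these data known. Of the listed genes, 2 had no row.

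Counts were summed per mouse and tested with edgeR 4.0.16 (quasi-likelihood, TMM, Benjamini-Hochberg over all genes tested, R 4.3.3), with DESeq2 1.42.0 as an alternative. Shares of cells were compared by two-sided exact permutation. Members were compared with remaining microglia with no test, by a ratio of at least 1.5 in 8 of 8 mice on a pseudocount of 1 CPM, among genes of at least 10 CPM. Named genes were the selection and gate genes, the 15 highest and 15 lowest ratios, the 5 smallest p in each direction among genes whose groups lay apart, and examples from each list; genes called by DESeq2 and those of Gpnmb-led cells were added after their values were seen. The fits were tested on simulated data. Each mouse gave 7772686 to 22300976 UMIs in injury-responsive microglia, and CPM of the sums carries counting error besides the spread between mice. RefSeq promoters are of another build than the counts. The labels give Female and Bl/J6; the methods of the study name both sexes and another substrain. Results of some listed genes are not reported here.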

Additional observations from a re-analysis of the deposited data

Results flagged for a closer look

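Of 84 sets of 4 mice examined, 4 held 1 value far from the other 3, where chance sets apart about 1 in 20. Ancrod mouse 4 had 33.5% of its injury-responsive microglia led by Lpl, against 15 to 17.3% in the other ancrod mice. Saline mouse 1 had 2.58% led by Itgax, against 0.228 to 0.558%. Bgn was at 3.24 CPM in ancrod mouse 3 against 2.20 to 2.37 CPM, and Ly6a at 19.8 CPM in ancrod mouse 2 against 13.6 to 14.5 CPM.

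The ancrod effect differed between injury-responsive and remaining microglia in 5 genes by the edgeR quasi-likelihood test of the difference itself. The difference in log2 fold change was 6.40 for Myh11, 5.84 for Sncg, 5.25 for Acta2, 4.30 for Mustn1 and -0.67 for Ly6a. In ancrod mouse 2, the cell with the most UMIs of each gene held 135 of 138 of Myh11, 52 of 55 of Sncg, 459 of 470 of Acta2 and 35 of 37 of Mustn1. In ancrod mouse 3, cells marked as doublets held 40 of 41, 22 of 22, 110 of 116 and 23 of 26.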

How the results depend on the processing

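No call of ancrod against saline within injury-responsive, remaining or all microglia passed edgeR in any alternative run, and DESeq2 called 3, 15 and 2 genes. The difference in share of microglia was -0.0336 to 4.57 percentage points with 1 mouse left out. That in share of kept droplets was -1.77 to 0.635, and turned positive with at least 2 gate genes (0.358) and in batch 2 alone (0.315, added after the data were seen). The 5 calls on the difference of the ancrod effect fell to 0 with at least 2 or 4 gate genes, the highest 10% in place of 25%, cells thinned to 2000 UMIs, doublets removed or the legacy quasi-likelihood method, came to 10 with DESeq2 and ranged from 0 (without ancrod mouse 2) to 23 (without ancrod mouse 4) with 1 mouse left out, where it was 1 without saline mouse 1 and 14 without ancrod mouse 1. Against the remaining microglia, genes counted higher were 317 of 8198 considered in the main run. They were 72 of 8019 with thinned cells and 191 of 3708 at 50 CPM or more. Genes counted lower were 568 of 8198 in the main run, 1148 of 8577 with at least 2 gate genes and 294 of 8100 with at least 4. They were 16 of 8019 with thinned cells and 323 of 3708 at 50 CPM or more. The log2 ratio of Gal was -0.023 with thinned cells. In all microglia the log2 fold change turned for Lpl with the replicate block (-0.0178), batch as a factor (-0.0198) and without 1 mouse (-0.309 to 0.242), for Cst7 with at least 2 gate genes (-0.0606) and without 1 mouse (-0.0697 to 0.177), for Gpnmb with at least 4 gate genes (-0.223) and thinned cells (-0.796), and for Igf1 without 1 mouse (-0.241 to 0.188). The cause of these changes was not tested.

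Replicate numbers did not pair the mice: deviations of same-numbered mice correlated at -0.28 to 0.0044. With the replicate block, injury-responsive microglia gave 0 calls, and the shares p = 0.625 and 0.750 by exact permutation over 16 sign flips, of which the smallest p is 0.125.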
